A study of Mus musculus with 4 samples.

Results

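Potassium channel genes were examined in whole uteri taken late in pregnancy from WT and Qa-2- mice. All protein-coding genes whose GRCm38 symbol starts with Kcn were taken, which gave 94 of the 55421 genes counted. Of these, 43 had at least 1 CPM (read pairs of the gene in 1000000 counted in that library) in at least 2 of the 4 libraries, a filter that 14492 of all genes passed. The 2 WT mice were C57BL/6J, which carry the genes of the class Ib molecule Qa-2. The 2 Qa-2- mice were of the congenic strain B6.Cg-H2b3/FlaCmwJ (B6.K1), which arose from crosses of H2 congenic lines and lacks all Qa-2 genes. All 4 uteri were taken at E18.5, near term, from matings within the strain, and 1 poly(A)-selected library was made from each mouse. The strains came from different breeders, so a difference at H2 and any other difference between the colonies cannot be told apart.

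Potassium channels let potassium leave the cell and so hold the membrane at a negative voltage, which keeps the voltage-gated calcium channels of smooth muscle closed. In the uterus they are known for keeping the myometrium quiet during pregnancy, and in arteries for relaxing the vessel wall. Voltage-gated channels (Kcna to Kcnd, Kcnh and Kcnq, with the silent subunits Kcnf, Kcng, Kcns and Kcnv) open on depolarization. Calcium-activated channels (Kcnma and Kcnn) open when calcium rises in the cell, and their relatives Kcnt when sodium rises, while Kcnu, counted with them as a relative of Kcnma, opens with voltage and alkaline pH. Inward rectifiers (Kcnj) set the resting voltage or respond to ATP, and two-pore channels (Kcnk) carry a steady leak. Auxiliary members (Kcnab, Kcne, Kcnip, Kcnmb and the regulator Kcnrg) form no pore themselves and alter the channels they act on.

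H2-Q6 and H2-Q7, which encode Qa-2, followed the genotype label of each library, with 4204 and 1192 counts of H2-Q6 in WT uteri against 3 and 3 in Qa-2- uteri, and 6318 and 1251 counts of H2-Q7 against 4 and 2. Library totals lay between 33286390 and 41041299 counts, both WT libraries being deeper, and 1 CPM stands for 33.3 to 41.0 read pairs. Smooth muscle markers were abundant in all 4 libraries, but their summed level ran from 28636 and 46771 CPM in WT replicates 1 and 2 to 26955 and 14959 CPM in Qa-2- replicates 1 and 2. All 10 of them had a positive log2 fold change, taken as WT over Qa-2- throughout (median 0.99), and 0 of the 10 had an unadjusted p under 0.05 by edgeR. Epithelial markers went the other way, with 2267 and 1295 CPM in WT against 3200 and 3260 CPM in the Qa-2- pair, and 2 of the 9 had an unadjusted p under 0.05. Endothelial markers had 1284 and 1092 CPM in WT against 584.9 and 573.8 CPM, with 8 of 8 at an unadjusted p under 0.05, and all 5 erythroid genes were likewise higher in WT, with 355.7 and 691.2 against 117.6 and 79.5 CPM. Of all genes tested by edgeR, 15.2% had an unadjusted p under 0.05, 8.09% higher in WT and 7.09% lower. Pericyte markers had 448.9 and 698.8 against 478.8 and 374.8 CPM (0 of 4 at an unadjusted p under 0.05 by edgeR). Leukocyte markers had 378.4 and 508.5 against 414.2 and 319.0 CPM (2 of the 7 expressed at that level, both higher in WT). Among them Ptprc was lower in both WT libraries, with 32.7 and 37.1 against 45.3 and 48.3 CPM. Yolk sac genes summed to 479.7 CPM in Qa-2- replicate 1 and at most 43.9 CPM elsewhere, while trophoblast genes summed to 23.5 CPM in WT replicate 2 and at most 3.84 CPM elsewhere. Of 7 nerve and glia markers, 2 were expressed, Sox10 had at most 4 counts in any library, and Uchl1 had 73.1 and 115.9 CPM in WT against 26.8 and 12.1 CPM in Qa-2- uteri. The part of these marker levels in the results was not tested, and in whole tissue a smaller number of cells of a type and less RNA per cell cannot be told apart.

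To show the sequence at annotated starts of a few members, 4 promoters from RefSeq (GRCm38.p6) are given, each from 250 bases before to 50 bases after an annotated start, on the strand of the gene and 5′ to 3′. Capitals mark the GC box GGGCGG, the TATA box written as TATAAA, the half-site of progesterone and glucocorticoid receptors written as AGAACA, the E-box CAGCTG or the CArG box of smooth muscle genes, searched on both strands. CAGCTG reads the same on both strands and is counted once. Kcnip2 is shown as the member with the largest positive difference, Kcnc2 (the start that lies at the gene start in the files) as the one with the largest negative difference, Kcnk1 as the most abundant member, and Kcnmb1 because it lies inside the gene of another member.
Kcnip2, chr19:45816014-45816313, minus strand: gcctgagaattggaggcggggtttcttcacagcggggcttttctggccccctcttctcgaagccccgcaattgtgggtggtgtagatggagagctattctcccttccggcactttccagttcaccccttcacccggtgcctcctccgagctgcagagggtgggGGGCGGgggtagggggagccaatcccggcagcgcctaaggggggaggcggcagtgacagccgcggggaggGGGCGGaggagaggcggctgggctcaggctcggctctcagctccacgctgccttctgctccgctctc
Kcnc2, chr10:112270871-112271170, plus strand: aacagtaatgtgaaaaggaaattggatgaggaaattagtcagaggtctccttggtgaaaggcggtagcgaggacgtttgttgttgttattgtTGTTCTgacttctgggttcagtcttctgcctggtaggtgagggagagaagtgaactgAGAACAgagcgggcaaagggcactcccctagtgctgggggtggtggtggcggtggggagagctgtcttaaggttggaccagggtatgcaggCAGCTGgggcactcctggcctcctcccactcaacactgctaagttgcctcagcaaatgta
Kcnk1, chr8:125994852-125995151, plus strand: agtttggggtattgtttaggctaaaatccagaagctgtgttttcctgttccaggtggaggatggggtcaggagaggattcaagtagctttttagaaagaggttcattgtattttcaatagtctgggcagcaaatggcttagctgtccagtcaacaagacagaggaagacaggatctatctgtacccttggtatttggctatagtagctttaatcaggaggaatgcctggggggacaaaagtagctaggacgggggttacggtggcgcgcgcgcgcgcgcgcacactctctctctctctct
Kcnmb1, chr11:33962763-33963062, plus strand: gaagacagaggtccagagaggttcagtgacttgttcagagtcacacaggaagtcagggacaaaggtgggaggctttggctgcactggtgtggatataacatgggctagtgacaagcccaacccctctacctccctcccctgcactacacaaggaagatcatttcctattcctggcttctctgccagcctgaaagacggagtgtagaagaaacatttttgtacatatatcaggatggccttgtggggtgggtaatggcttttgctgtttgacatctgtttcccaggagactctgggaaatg

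The Kcnip2 promoter holds GGGCGG in 2 places, 87 and 17 bases before the start, and the Kcnc2 promoter holds AGAACA in 2 places and the E-box in 1. The windows of Kcnk1 and Kcnmb1 hold none of the 5 motifs. RefSeq promoters were found for 30 of the 43 expressed members, with 53 starts in all. GGGCGG was in 37.7% of these 53 windows against 35.7% of all 32851 promoter windows, and AGAACA in 15.1% against 19.0%. CAGCTG was in 28.3% against 16.3%, TATAAA in 5.66% against 13.6%, and the CArG box in 0 of 53 against 1.63%. Several starts of 1 gene can overlap, so the windows are not independent, and which start is used in the uterus was not measured.

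No potassium channel gene passed an adjusted p of 0.05 between WT and Qa-2- uteri by edgeR's quasi-likelihood test, as was the case for 0 of all 14492 genes (0%), and the smallest adjusted p of a member by edgeR was 0.246. At an unadjusted p under 0.05, 6 of the 43 members (14.0%) were reached against 15.2% of all genes. Of these 6, Kcnip2 and Kcns3 were higher in WT (2 members, background 8.09%), and 4 members, Kcnc2, Kcnip1 and Kcnk1 among them, were higher in Qa-2- uteri (background 7.09%). Kcnip1 passed the filter only through the Qa-2- libraries, so it had to differ to be counted. The share of members at this level was thus near that of all genes. DESeq2's Wald test, run as an alternative, reached an unadjusted p under 0.05 for 9 members, 4 higher in WT (background 8.59%) and 5 lower (background 7.88%). It called 3 members at an adjusted p under 0.05, Kcnip2 higher in WT (background 2.79%) and 2 lower, Kcnc2 among them (background 2.04%), and 4.83% of all genes in either direction. Of the log2 fold changes (WT over Qa-2-), the median was 0.17 for the 43 members and 0.01 for all genes, with 24 members above 0 and 19 below. Without WT replicate 2 the median of the members was -0.23. With 2 mice per group, exact permutation of 1 gene at a time cannot give a two-sided p under 0.33.

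**Figure D1:**
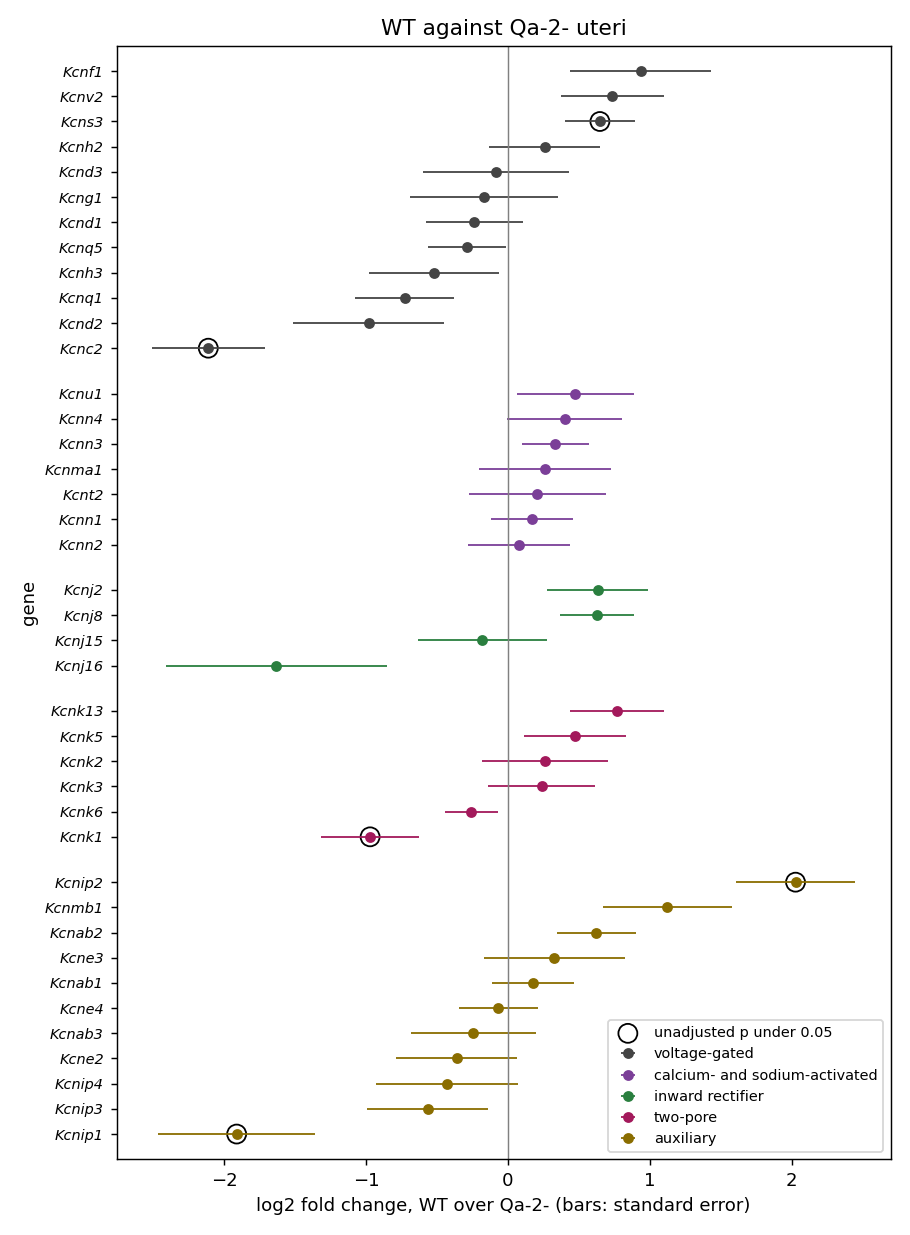
Log2 fold change, WT over Qa-2- (x axis, points, with bars for the standard error) for 40 of the 43 expressed potassium channel genes (y axis), coloured by class, from 2 libraries per group. Circles mark the 5 genes plotted with an unadjusted p under 0.05, from Kcnip2 at 2.03 down to Kcnc2 at -2.11.

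In CPM, the groups did not overlap for 18 of the 43 members (41.9%), against 50.7% of all genes. They were 9 members higher in both WT libraries (background 18.7%) and 9 lower in both (background 32%). With library sizes scaled by TMM, 10 members were higher in both WT libraries (background 25.4%) and 7 lower in both (background 24.5%). Levels below are CPM on library totals and fold changes are from the TMM-scaled fit, unless stated.

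**Figure D2:**
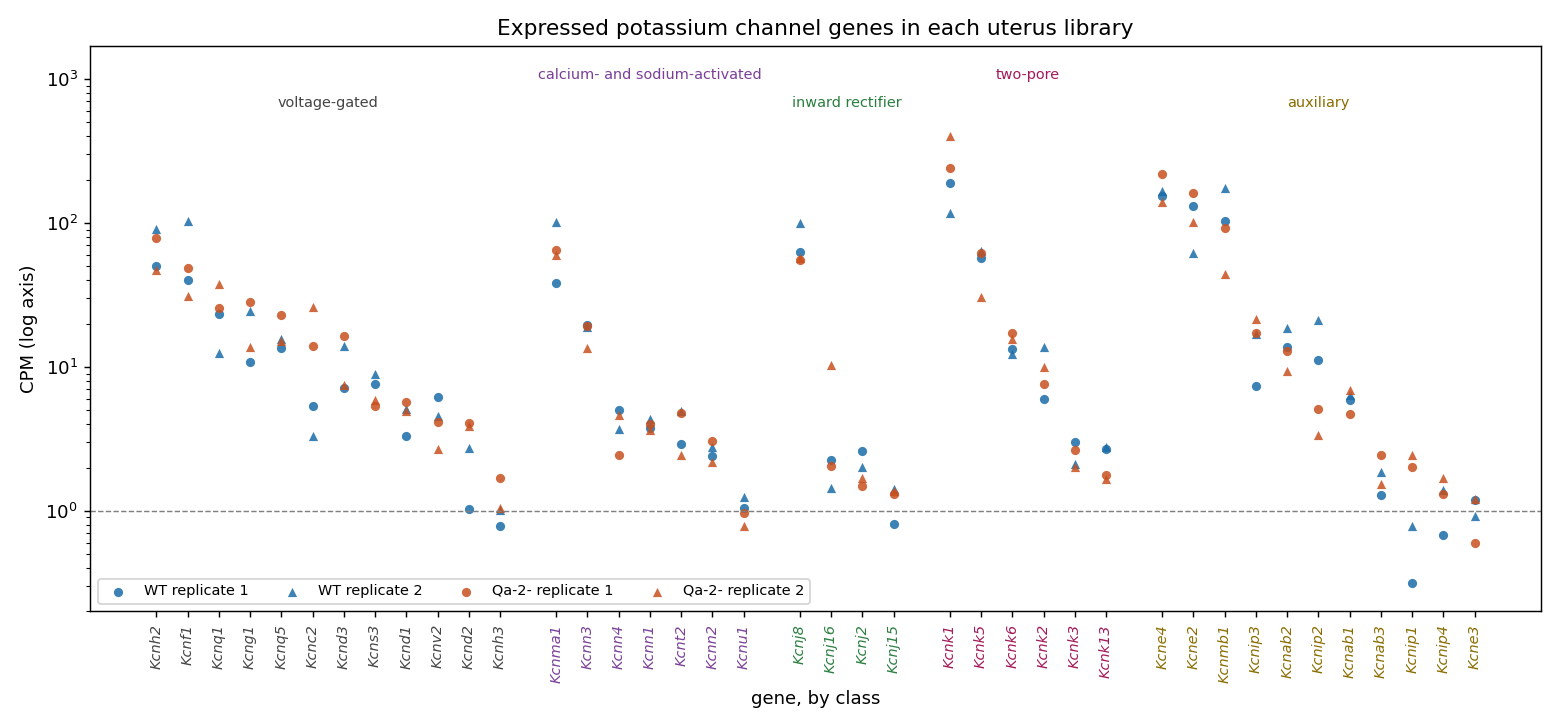
CPM (y axis, log scale) of 40 of the 43 expressed potassium channel genes (x axis, grouped by class and ordered by mean level) in each of the 4 libraries, with blue for WT, orange for Qa-2-, circles for replicate 1 and triangles for replicate 2. The dashed line is 1 CPM. Kcnk1 reaches 399.9 CPM in Qa-2- replicate 2 and is the highest member in every library but WT replicate 2, where Kcnmb1 (176.5 CPM) and Kcne4 (167.7 CPM) lie above it (117.7 CPM).

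Among the 40 voltage-gated members, 15 were expressed. None of the 8 Kcna genes (Kv1, delayed rectifiers of many excitable cells) passed the filter, and the arterial Kcna5 had 26 and 29 counts in the WT pair and 32 and 10 counts in the Qa-2- pair. By level per length (CPM per kilobase of exon, mean of 4 libraries), Kcnh2 was first in this class with 13.8, followed by Kcnf1 with 11.7 and Kcnq1 with 6.09. The class had 6 positive and 9 negative log2 fold changes with a median of -0.17. With library totals alone, 5 were positive and 10 negative. The balance rested on single libraries, with 9 positive and 6 negative without WT replicate 1 (median 0.29) or Qa-2- replicate 1 (0.36), and 4 positive and 11 negative without WT replicate 2 (-0.41) or Qa-2- replicate 2 (-0.45).

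Kcnc2 (ENSMUSG00000035681, chromosome 10, 112271121 to 112467024, plus strand) encodes Kv3.2, a fast channel best known from rapidly firing neurons. It had 5.36 and 3.32 CPM in WT replicates 1 and 2 against 14.0 and 26.2 CPM in Qa-2- replicates 1 and 2. Both Qa-2- libraries were above both WT libraries. The mean and SD of each pair of mice (n = 2) came to 4.34 ± 1.44 CPM for WT and 20.1 ± 8.62 CPM for Qa-2-. The log2 fold change (WT over Qa-2-) was -2.11 (standard error 0.40), 4.32-fold higher in Qa-2- uteri (unadjusted p = 0.0029 and adjusted p = 0.246 in the edgeR fit). By DESeq2's Wald test the adjusted p was 0.000118, and over all 14 alternatives it ran from 0.000118 to 0.829. The summed epithelial markers were higher in both Qa-2- libraries too, and their part in the Kcnc2 result was not tested.

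The silent subunits open no channel alone and change the voltage-gated channels they join. Kcns3 (ENSMUSG00000043673, chromosome 12, 11090202 to 11151056, minus strand), which encodes the silent subunit Kv9.3, known from smooth muscle, had 7.58 and 8.91 CPM in WT against 5.35 and 5.89 CPM in Qa-2- uteri, with no overlap. Its log2 fold change was 0.65 (standard error 0.24, unadjusted p = 0.0439 and adjusted p = 0.319 in the edgeR fit), and 0.51 to 0.75 with each library left out in turn. Kcnf1 (Kv5.1, silent) had 40.4 and 102.9 CPM in WT against 48.8 and 31.2 CPM. WT replicate 2 stood above the other 3 libraries, and without it the log2 fold change was 0.09 in place of 0.94 (standard error 0.50). Kcnv2 (Kv8.2, silent) had 6.16 and 4.54 CPM in WT against 4.15 and 2.67 CPM, without overlap (log2 fold change 0.74, standard error 0.36, unadjusted p = 0.0966 from edgeR). Kcng1 (Kv6.1, silent) went through both groups, with 10.8 and 24.4 CPM in WT against 28.3 and 13.8 CPM.

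Of the Kv7 genes, Kcnq5 is known for relaxing smooth muscle, while Kcnq1 serves heart muscle and many epithelia. Kcnq5 had 13.6 and 15.6 CPM in WT against 22.9 and 15.1 CPM in Qa-2-. The groups overlapped (log2 fold change -0.29, standard error 0.27). Kcnq1 (ENSMUSG00000009545, chromosome 7, 143106362 to 143427042, plus strand) had 23.5 and 12.5 CPM in WT against 25.7 and 37.97 CPM in Qa-2- uteri, lower in both WT libraries though WT replicate 1 lay close to Qa-2- replicate 1. Its log2 fold change was -0.73 (standard error 0.35, unadjusted p = 0.0891 and adjusted p = 0.388 in the edgeR fit), and it ran from -1.26 without WT replicate 1 to -0.36 without WT replicate 2. Its antisense gene Kcnq1ot1, which silences the paternal copy of the locus and lies within it on the other strand, had 100 and 171 counts in the WT pair and 171 and 327 in the Qa-2- pair. Counting was by strand, so the reads of the pair were kept apart.

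Kcnh2 (ERG1), which repolarizes cardiac and uterine muscle, had 50.1 and 91.4 CPM in WT against 78.5 and 47.5 CPM in Qa-2- uteri. The ranges crossed, and the log2 fold change of 0.26 (standard error 0.39) was -0.26 without WT replicate 2 and -0.08 without Qa-2- replicate 2. All 3 genes of the Kv4 family, whose transient current shapes the start of an action potential, had negative values with all 4 libraries, but Kcnd1 and Kcnd3 did not keep them. Kcnd2 had 1.02 and 2.74 CPM in WT against 4.09 and 3.88 CPM (log2 fold change -0.98, standard error 0.53, unadjusted p = 0.124 from edgeR), which was -0.45 without WT replicate 1 and -1.88 without WT replicate 2. Kcnd1 had 3.29 and 5.13 against 5.67 and 4.93 CPM (-0.24, and 0.036 without WT replicate 1), and Kcnd3 had 7.14 and 14.0 against 16.4 and 7.45 CPM. The direction of Kcnd3 (-0.09) turned to 0.31 without WT replicate 1 and to 0.63 without Qa-2- replicate 1. Kcnh3 was at the edge of the filter, at 0.780 to 1.69 CPM.

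All but 1 of the 8 calcium- and sodium-activated members were expressed, and 0 of these 7 had an unadjusted p under 0.05 by edgeR (background 15.2%), which at so few genes says little of the class. Their log2 fold changes lay between 0.08 and 0.48 with a median of 0.26, and that of Kcnn2 (0.08) was -0.01 with library totals alone. Without WT replicate 2, 3 were positive and 3 negative (median 0.0036), and without Qa-2- replicate 2, 5 were positive and 2 negative (median 0.08). The value of 0.48 belongs to Kcnu1, which passed the filter only through the WT libraries. Kcnma1 (ENSMUSG00000063142, chromosome 14, 23289431 to 24014491, minus strand) encodes the large-conductance BK channel, a brake on contraction in uterine and vascular muscle. It had 38.1 and 101.2 CPM in WT against 64.9 and 59.5 CPM in Qa-2- uteri. The 2 WT libraries enclosed both Qa-2- libraries. Its log2 fold change of 0.26 (standard error 0.46) became -0.63 without WT replicate 2 and 0.79 without WT replicate 1, so no direction can be given.

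The small-conductance channel gene Kcnn3 (SK3), whose overexpression is known to disturb parturition in mice, had 19.7 and 19.1 CPM in WT against 19.2 and 13.5 CPM in Qa-2- uteri. The first 3 libraries were close and Qa-2- replicate 2 was lower (log2 fold change 0.33, standard error 0.24, and 0.08 without that library). Kcnn1 ranged from 3.64 to 4.31 CPM and Kcnn2 from 2.19 to 3.04 CPM over the 4 libraries. Kcnn4, the intermediate-conductance channel of endothelium and blood cells, had 5.02 and 3.68 CPM in WT against 2.43 and 4.63 CPM. The sodium-activated Kcnt2, which oxytocin inhibits in myometrium, had 2.92 and 4.97 against 4.81 and 2.46 CPM, while Kcnt1 had 0 and 0 counts in WT against 6 and 6. Kcnu1, a channel known from sperm, lay just inside the filter with 1.05 and 1.24 CPM in WT against 0.974 and 0.781 CPM.

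Of 15 inward rectifier genes, 4 were expressed and 4 had no count in any library. Kcnj8 (ENSMUSG00000030247, chromosome 6, 142564837 to 142571614, minus strand), the Kir6.1 pore of the ATP-sensitive channel of vascular muscle, was the first of them by level per length (27.1 CPM per kilobase). It had 62.6 and 100.6 CPM in WT against 55.7 and 57.4 CPM in Qa-2- uteri. Both WT libraries were above both Qa-2- libraries. Its log2 fold change was 0.63 (standard error 0.26, unadjusted p = 0.0606 and adjusted p = 0.346 in the edgeR fit), 0.22 without WT replicate 2. The related pore Kcnj11 (Kir6.2) had at most 7 counts in any library. Kcnj2 (Kir2.1), the classical inward rectifier, had 2.61 and 2.01 CPM in WT against 1.49 and 1.68 CPM, again without overlap (log2 fold change 0.63, standard error 0.36, unadjusted p = 0.134 from edgeR). Kcnj16 (Kir5.1), known from renal epithelium, had 2.27 and 1.45 CPM in WT against 2.06 and 10.4 CPM. A single library, Qa-2- replicate 2, set its log2 fold change of -1.63 (standard error 0.78), which was -0.09 without it. Kcnj15 was between 0.804 and 1.42 CPM. Below the filter, Kcnj14 had 22 and 19 counts in the WT pair and 3 and 3 counts in the Qa-2- pair and was named after its values were seen.

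Of 14 two-pore genes, 6 were expressed. Kcnk1 (ENSMUSG00000033998, chromosome 8, 125995170 to 126030685, plus strand) encodes TWIK1, a leak channel found in many epithelia, and was the most abundant member of all with 106 CPM per kilobase. It had 188.4 and 117.7 CPM in WT against 242.3 and 399.9 CPM in Qa-2- uteri. Both Qa-2- libraries lay above both WT libraries. The mean and SD of each pair of mice (n = 2) came to 153.1 ± 50.01 CPM for WT and 321.1 ± 111.4 CPM for Qa-2-. The log2 fold change was -0.97 (standard error 0.34, unadjusted p = 0.0352 and adjusted p = 0.308 in the edgeR fit), which is 1.96-fold higher in Qa-2- uteri, and -0.60 without Qa-2- replicate 2. The summed epithelial markers were lower in both WT libraries as well, as were 6 of the 9 markers singly (background 32%), and the part of this in the Kcnk1 result was not tested.

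The other two-pore genes differed less. Kcnk5 (TASK2), an acid-sensitive channel of epithelia and lymphocytes, had 56.9 and 64.1 CPM in WT against 61.9 and 30.8 CPM in Qa-2-, where replicate 2 alone was apart. The stretch-activated Kcnk2 (TREK1), a relaxing channel of the pregnant myometrium, had 5.97 and 13.7 CPM in WT against 7.62 and 10.03 CPM. Its log2 fold change of 0.26 (standard error 0.44) was -0.48 without WT replicate 2. Kcnk6 (TWIK2) had 13.4 and 12.3 CPM in WT against 17.1 and 15.7 CPM, a small difference without overlap (log2 fold change -0.26, standard error 0.19, unadjusted p = 0.22 from edgeR). Kcnk13 (THIK1), a channel of microglia and other myeloid cells, had 2.68 and 2.79 CPM in WT against 1.78 and 1.65 CPM, without overlap (log2 fold change 0.77, standard error 0.33, unadjusted p = 0.0675 from edgeR). Kcnk3 (TASK1) ranged from 2.01 to 3.02 CPM in all 4 libraries.

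Of the 17 auxiliary members, 11 were expressed, with 5 positive and 6 negative log2 fold changes (6 positive and 5 negative without WT replicate 2, 6 and 4 without Qa-2- replicate 1). The 4 Kcnip genes encode KChIPs, calcium-binding proteins that bring Kv4 channels to the surface, and they included both the largest positive and the second largest negative value of all members. Kcnip2 (ENSMUSG00000025221, chromosome 19, 45791839 to 45816061, minus strand), the KChIP of heart muscle, had 11.2 and 21.1 CPM in WT against 5.07 and 3.36 CPM in Qa-2- uteri. Both WT libraries were above both Qa-2- libraries. The mean and SD of each pair of mice (n = 2) came to 16.1 ± 7.02 CPM for WT and 4.22 ± 1.20 CPM for Qa-2-. The log2 fold change was 2.03 (standard error 0.42, unadjusted p = 0.00443 and adjusted p = 0.246 in the edgeR fit), 4.08-fold higher in WT. It ran from 1.48 to 2.40 with each library left out in turn. The adjusted p was 0.000593 by DESeq2's Wald test and 0.455 by edgeR with a replicate block. The summed smooth muscle markers were also higher in both WT libraries, as were 7 of the 10 markers singly (background 18.7%). So were the endothelial and erythroid sums, with 8 of 8 and 5 of 5 genes singly, while the epithelial sum was lower in both. The part of these markers in the Kcnip2 result was not tested.

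Kcnip1 (ENSMUSG00000053519, chromosome 11, 33629339 to 33993152, minus strand), a KChIP of neurons, had 13 and 31 counts in the WT pair and 70 and 82 counts in the Qa-2- pair (0.317 and 0.787 against 2.004 and 2.46 CPM). The groups were apart, but WT levels were below the filter. It passed the filter only through the Qa-2- libraries, so it had to differ to be tested, and without either Qa-2- library it was not tested. The log2 fold change was -1.91 (standard error 0.55, unadjusted p = 0.017 and adjusted p = 0.275 in the edgeR fit), with -1.41 without WT replicate 1 and -2.73 without WT replicate 2. Kcnip3, which also acts as a transcriptional repressor, had 7.33 and 16.98 CPM in WT against 17.2 and 21.5 CPM (log2 fold change -0.57, standard error 0.43, but -0.10 without WT replicate 1 and -1.32 without WT replicate 2). In CPM its groups were apart by a small step, and with TMM scaling they overlapped. Kcnip4 lay between 0.682 and 1.68 CPM.

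Kcnmb1 (ENSMUSG00000020155, chromosome 11, 33963013 to 33973641, plus strand), the smooth muscle beta subunit that makes BK channels more sensitive to calcium, lies within the span of Kcnip1 on the opposite strand, and their exons do not overlap. It had 104.1 and 176.5 CPM in WT against 93.1 and 44.0 CPM in Qa-2- uteri. WT replicate 1 and Qa-2- replicate 1 were close, while WT replicate 2 was high and Qa-2- replicate 2 low. The mean and SD of each pair of mice (n = 2) came to 140.3 ± 51.2 CPM for WT and 68.5 ± 34.7 CPM for Qa-2-. The log2 fold change was 1.12 (standard error 0.46, unadjusted p = 0.0552 and adjusted p = 0.34 in the edgeR fit), with 0.66 without Qa-2- replicate 2 and 1.79 without Qa-2- replicate 1. The part of the smooth muscle markers in this result was not tested either. Of the other beta subunits, Kcnmb2 had at most 8 counts, Kcnmb3 at most 1 and Kcnmb4 at most 10 in any library, and Kcnrg had at most 6.

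The Kcne genes encode single-span subunits of Kv7 and other voltage-gated channels. Kcne2 and Kcne4 came next after Kcnk1 by level per length (64.5 and 63.9 CPM per kilobase). Kcne4, a subunit of vascular Kv7 channels, had 153.4 and 167.7 CPM in WT against 218.8 and 138.9 CPM in Qa-2-, and Kcne2, the partner of Kcnq1 in gastric and other epithelia, had 131.1 and 61.9 against 161.9 and 100.9 CPM. The groups overlapped in both (log2 fold changes -0.07 and -0.36, standard errors 0.28 and 0.42), and both turned to above 0 without Qa-2- replicate 1 (0.32 and 0.05). The beta subunit Kcnab2, which binds Kv1 channels and NADPH, had 13.8 and 18.6 CPM in WT against 13.0004 and 9.40 CPM, without overlap (log2 fold change 0.62, standard error 0.28, unadjusted p = 0.0752 from edgeR). Kcnab1 was between 4.72 and 6.91 CPM, Kcnab3 between 1.29 and 2.43 CPM and Kcne3 between 0.601 and 1.20 CPM.

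**Figure D3:**
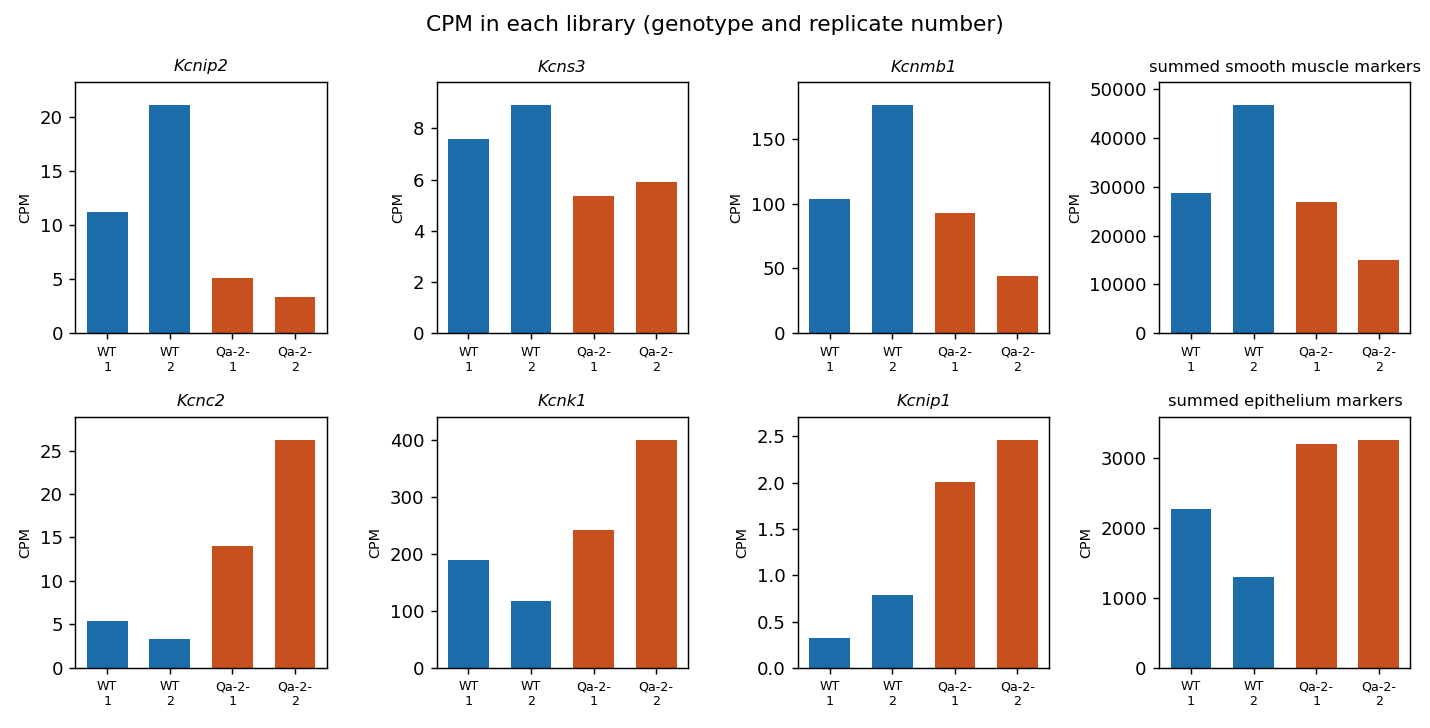
CPM (y axes, each from 0) in each of the 4 libraries (x axes, genotype and replicate number; blue WT, orange Qa-2-) for 5 of the 6 members with an unadjusted p under 0.05, for Kcnmb1, and for the summed smooth muscle and epithelium markers. Kcnip2, Kcns3, Kcnmb1 and the smooth muscle sum are higher in both WT libraries, and Kcnc2, Kcnk1, Kcnip1 and the epithelium sum are higher in both Qa-2- libraries.

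WT replicate 2 was the highest library for 16 of the 43 members, Qa-2- replicate 1 for 13, Qa-2- replicate 2 for 9 and WT replicate 1 for 5. Over all 14492 genes these counts were 3083 for WT replicate 2, 3019 for Qa-2- replicate 1, 5384 for Qa-2- replicate 2 and 3006 for WT replicate 1.

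Of 15 genes without a Kcn symbol whose products join or regulate these channels, or are close relatives, 7 were expressed. Of these, 0 were at an unadjusted p under 0.05 higher in WT (background 8.09%) and 2 were lower (background 7.09%), with a median log2 fold change of 0.38. Lrrc26, the gamma subunit that lets BK channels open at rest in secretory epithelia, had 6.16 and 4.87 CPM in WT against 10.2 and 12.5 CPM in Qa-2- uteri (log2 fold change -0.94, standard error 0.25, unadjusted p = 0.012 and adjusted p = 0.271 in the edgeR fit). Akap9, the scaffold that ties kinases to Kv7.1, had 54.7 and 50.3 CPM in WT against 76.4 and 90.6 CPM (log2 fold change -0.57, standard error 0.15, unadjusted p = 0.0126 and adjusted p = 0.271 in the edgeR fit). Both Qa-2- libraries were above both WT libraries in each. Abcc9, the sulfonylurea receptor that pairs with Kcnj8, had 55.1 and 121.0 CPM in WT against 73.2 and 57.0 CPM, with overlap, while the pancreatic form Abcc8 had at most 33 counts. Dpp6, a surface partner of Kv4 channels, had 38.2 and 37.1 CPM in WT against 35.0 and 26.6 CPM (log2 fold change 0.38, standard error 0.20).

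Of the 51 members below the filter, 12 had no count in any library, which allows up to 0.0731 to 0.0901 CPM (3 counts, counting error only), and 21 had at most 3 counts in each. The largest count among them was 77. Closest to the filter were Kcna1, with 0.931 CPM as its second highest value, and Kcna6 with 0.914 CPM, while Kcnu1 with 1.05 CPM and Kcnh3 with 1.05 CPM were just inside. No expressed member lies on chromosome 17, where H2 is, and the 3 members of that chromosome (Kcng3, Kcnh8 and Kcnk12) had at most 14 counts. The 43 expressed members are spread over 17 chromosomes. In 17 of them an exon overlaps an exon of a gene on the other strand, and in 0 one on the same strand.

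**Figure D4:**
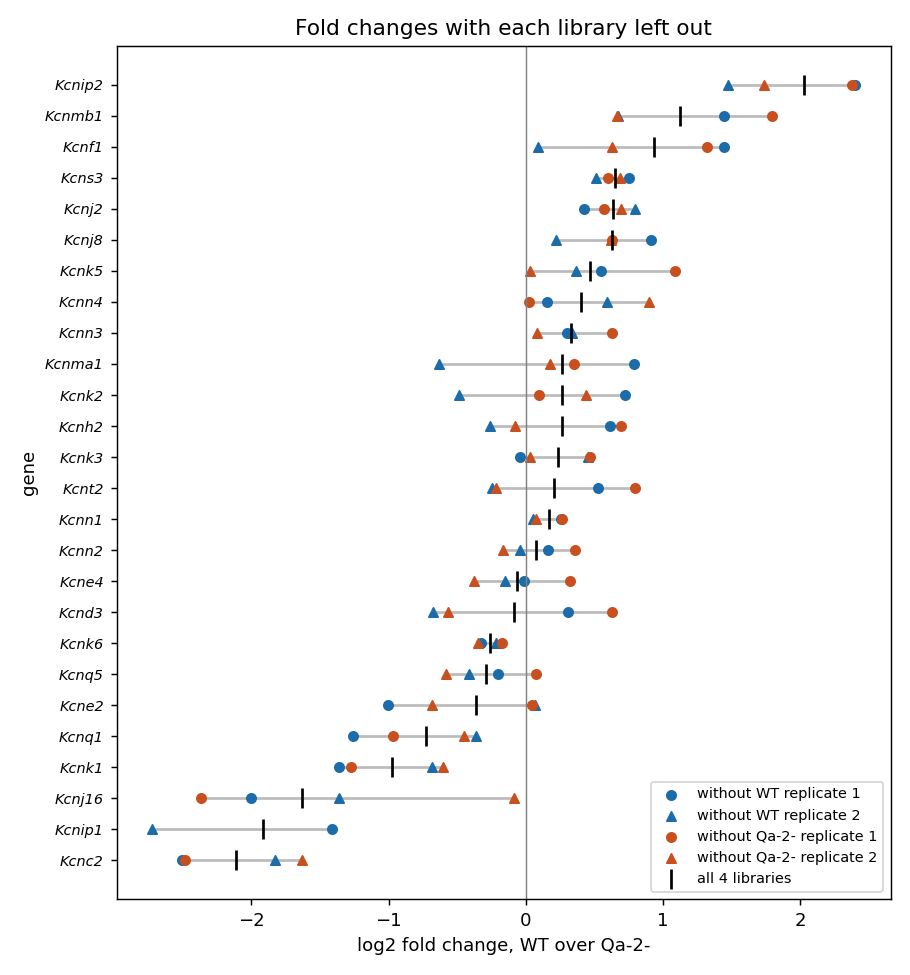
Log2 fold change, WT over Qa-2- (x axis), for 26 potassium channel genes (y axis) with all 4 libraries (black bars) and without each library in turn (coloured symbols, with grey lines for their range), except that Kcnip1 has no value without either Qa-2- library. Kcnip2 stays between 1.48 and 2.40 and Kcns3 between 0.51 and 0.75, while Kcnma1 runs from -0.63 to 0.79.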

How the data were processed

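RNA was sequenced from 4 uteri, 1 library per mouse. Counts of read pairs per gene were deposited by the authors without normalization. Per the file headers they were made with featureCounts 2.0.0 on a GRCm38 annotation, on the reverse strand, keeping pairs mapped at both ends whose mapping quality reached 3, and the submitters' processing notes name STAR 2.7.3a. Pairs that fitted several places or genes were not counted, so members similar to another gene may be undercounted. Symbols and gene types came from GENCODE M21, which holds 55240 of the 55421 identifiers, and the members' GENCODE gene ends were those of the files for 92 of 94.

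CPM were computed on library totals. Genes that reached 1 CPM in 2 or more libraries (the filter named in the study's methods, which name no test for comparing these counts) were compared with TMM normalization and edgeR 4.0.16 (glmQLFit and glmQLFTest, package defaults) in R 4.3.3, as WT over Qa-2-, adjusting p by Benjamini and Hochberg over the genes tested. The filter as worded kept 14492 genes, and edgeR's filterByExpr, an alternative, kept 17210, the number that the methods give. Each standard error is the log2 fold change divided by the square root of F. Levels per length use the exon length in the files, which joins all isoforms. With the total between 33286390 and 41041299 counts, the precision of low members is limited by counting. Each edgeR p-value sets the group difference against the spread between mice within groups (2 per group), moderated over all genes tested. The steps were tested on simulated data. To see whether a library had been deposited more than once, the counts of each pair were compared (a chi-square of 240.8 per gene in WT and 150.9 in Qa-2-), and none had. The alternatives were DESeq2 1.42.0, other normalizations, filters and edgeR settings, a replicate block and each library left out. With 1 library left in a group, that library is assumed to vary like those of the other group. Named were, in each class, the 2 members highest per length, members with an unadjusted p under 0.05, the 3 largest and 3 smallest fold changes, and members known from smooth muscle. Others are given by their values. The members, lists and tests were chosen with earlier results of these data known. Some genes that the rule names are not reported here, though counts over all members include them. A planned scan of protein sequences was not run.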

Additional observations from a re-analysis of the deposited data

How the results depend on the processing

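No potassium channel gene had an adjusted p under 0.05 in any of the edgeR fits to all 4 libraries. Over all genes these fits called 0, except 61 of 28242 without a filter and 2 of 14492 with the replicate block. DESeq2 called 3 members and 700 of all 14492 genes (4.83%). The number of members at an unadjusted p under 0.05 (6 of 43, with 15.2% of all genes) was 14 of 82 without a filter, where more genes were tested (10.8% of all genes), and 12 of 43 (25% of all genes) when each WT library was paired with the Qa-2- library of the other number (crossed pairing, chosen after seeing the data). It ran from 3 to 13 with each library left out, 3 of 41 without Qa-2- replicate 2 (5.46% of all genes) and 13 of 41 without WT replicate 1 (15.7% of all genes). With filterByExpr it was 8 of 58 (14.2% of all genes). The cause of these differences was not tested. The median log2 fold change of the members (0.17) ran from -0.23 without WT replicate 2 to 0.34 without Qa-2- replicate 1 and was -0.09 without Qa-2- replicate 2 and -0.06 without a filter, so its direction is not fixed. The number of expressed members was 37 when all 4 libraries had to reach 1 CPM and 50 at 0.5 CPM.

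The replicate numbers are shared by the groups, but same-numbered libraries deviated from their group means in opposite ways (correlation -0.39), and nothing in the labels pairs them. With the replicate block 4 of 43 members (9.3%) and 9.18% of all genes were at an unadjusted p under 0.05 by edgeR. At an adjusted p under 0.05, 0 members and 2 of all genes were called, and the median was 0.09. The median was 0.10 with the crossed pairing, where 0 members and 0 of all genes were called.

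Among 26 named members, 16 kept their direction in every alternative that tested them, which were 14 for each but Kcnip1 (12). The others turned in 16 cases. With library totals alone, Kcnn2 was -0.015. Without WT replicate 1, Kcnd3 was 0.31 and Kcnk3 was -0.042. With each library left out in turn, Kcne2 ran from -1.01 to 0.069, Kcne4 from -0.38 to 0.32, Kcnma1 from -0.63 to 0.79 and Kcnh2 from -0.26 to 0.70. Kcnn2 ran from -0.16 to 0.36 and Kcnt2 from -0.24 to 0.80. Kcnq5 ran from -0.58 to 0.073, Kcnd3 from -0.67 to 0.63, Kcnk2 from -0.48 to 0.73 and Kcnk3 from -0.042 to 0.47. Kcnip2, Kcns3, Kcnc2 and Kcnk1 kept their direction in all 14 alternatives. They were named for their p in these same libraries, and their groups did not overlap. Leaving 1 library out or rescaling could thus hardly turn them, and this adds no support.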
